A study of Homo sapiens with 4 samples.

Results

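Long noncoding RNAs are transcripts that are not translated into protein, and some of them are often measured in tumours. This report covers 10 of them, chosen by gene symbol: MALAT1, NEAT1, SNHG1, GAS5, MIR31HG, MIR100HG, MIR22HG, PVT1, TUG1 and LUCAT1. All 10 symbols were found among the 61471 genes of the deposited count tables, and 9 of the 10 passed the filter on low counts. The exception, MIR31HG, had 0 counts in each of the 4 libraries.

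The libraries were made from MDA-MB-231, a human triple negative breast cancer cell line (MDA-B-231 in the sample titles), with a genotype given as WT. Each library carries the transfection label H2B-EGFP, CMV-RFP, so this label is shared by both groups, which differ in EGFP status. The 2 EGFP negative libraries have the status of increased extravasation, the exit of cells from a vessel, and the 2 EGFP positive libraries do not. EGFP status and extravasation status coincide in the labels and cannot be told apart. The series title concerns polyploidy, but the labels give no ploidy for either group, and they do not state that the 2 libraries within a group were grown separately. A p-value here thus reflects how far these libraries vary, which can be technical variation alone.

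The RNAs do different work. MALAT1 and NEAT1 stay in the nucleus: MALAT1 gathers in nuclear speckles, which store splicing factors, and the long form of NEAT1 is the scaffold of paraspeckles, bodies that hold RNA-binding proteins. SNHG1 and GAS5 are host genes whose introns yield small nucleolar RNAs (snoRNAs), guides for the modification of ribosomal RNA; their spliced RNAs are degraded by nonsense-mediated decay when translated. MIR31HG, MIR100HG and MIR22HG are precursors or hosts of microRNAs. PVT1 lies beside the MYC oncogene, TUG1 was first described in the developing mouse retina, and LUCAT1 was first described in lung cells exposed to cigarette smoke and is induced by the stress factor NRF2.

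The microRNAs of the 3 microRNA hosts are shown first because a host's level is the only readout of these loci in libraries of polyadenylated RNA. They are 5′ to 3′ mature sequences from RefSeq (GRCh38.p14), and capitals mark the seed, bases 2 to 8, which pairs with target messenger RNAs.
hsa-miR-31-5p: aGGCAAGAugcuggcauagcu
hsa-miR-125b-5p: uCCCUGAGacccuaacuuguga
hsa-let-7a-5p: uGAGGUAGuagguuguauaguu
hsa-miR-100-5p: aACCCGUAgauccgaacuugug
hsa-miR-22-3p: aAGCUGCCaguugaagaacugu
The 5 microRNAs have 5 different seeds, so none is grouped with another. hsa-miR-31-5p, at chr9:21512158-21512178 on the minus strand, lies in an intron of MIR31HG. The 3 microRNAs of MIR100HG lie in its introns, at chr11:122099809-122099830 for hsa-miR-125b-5p, chr11:122146568-122146589 for hsa-let-7a-5p and chr11:122152275-122152296 for hsa-miR-100-5p, all on the minus strand. hsa-miR-22-3p, at chr17:1713914-1713935 on the minus strand, lies in an exon of MIR22HG. The mature microRNAs themselves were not measured by these libraries.

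The ends of the 2 main NEAT1 forms are shown because the form decides how the RNA can enter a library selected for poly(A) tails. They are the last 60 bases of GENCODE 29 transcripts (GRCh38, plus strand). In the 2994-base transcript NEAT1-208, ending at chr11:65426454-65426513, capitals mark a polyadenylation hexamer; in the 22743-base transcript NEAT1-202, ending at chr11:65445481-65445540, they mark the runs of T (U in the RNA) and A near the end, which in the RNA fold into a triple helix in place of a poly(A) tail.
NEAT1-208: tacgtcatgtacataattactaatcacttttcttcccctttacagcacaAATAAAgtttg
NEAT1-202: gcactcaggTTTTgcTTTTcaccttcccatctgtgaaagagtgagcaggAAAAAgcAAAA
Of the 8 NEAT1 transcripts in that annotation, NEAT1-202 is the longest. The deposited tables sum all forms of a gene, so long and short NEAT1 could not be counted apart.

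The first 40 bases of 1 transcript of each snoRNA host are shown because such genes are known to have a run of pyrimidines at their start, the mark of RNAs whose translation follows that of ribosomal proteins. Capitals mark the first long pyrimidine run, which starts at base 1 in the GAS5 transcript and at base 5 in the SNHG1 transcript, so the SNHG1 transcript shown does not begin with it. The GAS5 transcript starts at the high end of chr1:173867950-173867989 and the SNHG1 transcript at the high end of chr11:62855846-62855885, both on the minus strand (GENCODE 29, GRCh38).
GAS5-219: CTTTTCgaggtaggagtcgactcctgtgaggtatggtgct
SNHG1-209: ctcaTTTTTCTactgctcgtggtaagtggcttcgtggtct
Of 30 GAS5 transcripts, 6 start at the base shown, and of 25 SNHG1 transcripts, 1 does.

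The libraries held 12635576 and 11620076 assigned fragments in EGFP negative cells and 11620005 and 11445076 in EGFP positive cells. Levels are given as CPM, fragment counts scaled to a common library size with TMM factors, in which 3 counts are worth 0.241 to 0.260 CPM, and as RPKM, CPM per kilobase of annotated exon, where genes are compared. The label check was the histone gene H2BC11, with 88 and 64 counts in EGFP negative libraries against 7733 and 7352 in EGFP positive libraries; the tables do not say whether these come from the chromosome or the reporter. Of 5 markers of the line, VIM and CAV1 were higher, at means of 5813 and 716 CPM in EGFP negative cells against 4199 and 575 CPM in EGFP positive cells. CD44 and EGFR were lower, at 641 and 479 CPM in EGFP negative cells against 865 and 601 CPM in EGFP positive cells, and AXL, at 1623 CPM in EGFP negative cells and 1693 CPM in EGFP positive cells, was not called. The luminal markers ESR1, PGR, CDH1 and FOXA1 had at most 3 counts in any library, while GATA3 had 109 to 130. Of 8 markers of immune, endothelial and fibroblast cells reported here, CD3E, CDH5 and DCN were at 0 in all libraries, and the summed level of the 8 was 17.8 to 26.4 CPM in EGFP negative libraries and 22.6 to 25.4 CPM in EGFP positive libraries. PECAM1, an endothelial adhesion molecule among them, had 39 and 43 counts in EGFP negative libraries against 9 and 9 in EGFP positive libraries. It passed the count filter through the EGFP negative libraries alone, so it could only be called higher. Of the 8, 2 were tested: PECAM1 was called higher at a log2 fold change of 2.11, and the other, at -0.30, was not called. The part of these markers in the results was not tested. In bulk RNA, fewer cells of a type and less RNA per cell cannot be told apart.

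EGFP negative cells had more NEAT1 and less PVT1 and SNHG1 than EGFP positive cells (edgeR quasi-likelihood test, Benjamini-Hochberg adjusted p under 0.05 over 16413 genes). Of the 9 RNAs tested, 1 was called higher and 2 lower, 33.3% in all. Among all genes tested, 18.9% were called, 9.4% higher and 9.46% lower. The 2 groups of libraries did not overlap for 8 of the 9 RNAs, a separation also seen for 57.4% of all genes tested. The median log2 fold change, EGFP negative over EGFP positive, was -0.17 over the 9 RNAs and -0.003 over all genes.

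**Figure D1:**
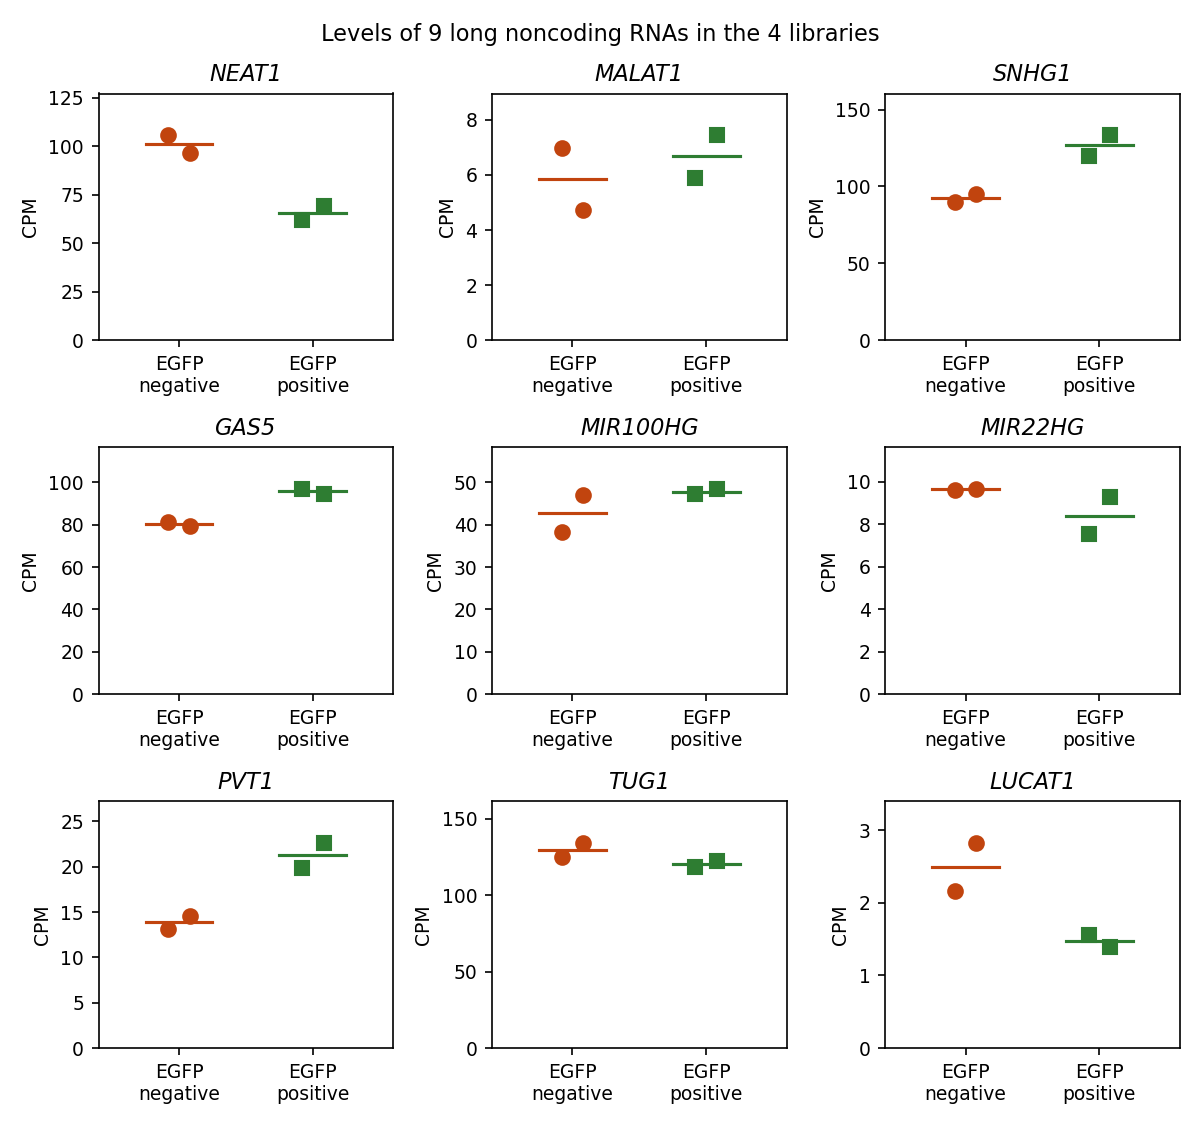
Level of each of the 9 long noncoding RNAs with counts, in TMM-scaled CPM on axes that start at 0; each point is a library (circles EGFP negative, squares EGFP positive) and the line is the mean of 2 libraries. NEAT1 stands higher in both EGFP negative libraries, PVT1 and SNHG1 stand lower in both, and MALAT1 is the only one of the 9 whose groups overlap.

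Per length, the RNAs spanned a wide range. Averaged over the 4 libraries, SNHG1 was at 29.6 RPKM, GAS5 at 22.3 and TUG1 at 16.7, followed by NEAT1 at 3.67, MIR22HG at 3.06 and MIR100HG at 2.62 RPKM. PVT1 was at 1.00, MALAT1 at 0.805 and LUCAT1 at 0.180 RPKM, and MIR31HG was at 0. Over the 4 libraries, the ranges of neighbours in this order overlapped for SNHG1 and GAS5, NEAT1 and MIR22HG, MIR22HG and MIR100HG, and PVT1 and MALAT1, so these pairs cannot be ordered beyond their spread. The place of MALAT1 is affected by how its exons were counted, as described with its values. NEAT1 was divided by 22767 bases of exon although its forms differ in length and were not counted apart, so its place is uncertain.

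NEAT1 (chr11:65422774-65445540, plus strand, 22767 bases of exon) was the only member called higher. It had 1321 and 1127 counts in EGFP negative libraries against 717 and 795 in EGFP positive libraries. These are 106 and 96.6 CPM in EGFP negative cells against 62.0 and 69.0 CPM in EGFP positive cells, so both EGFP negative libraries stood above both EGFP positive ones. The means were 101 ± 6.75 CPM in EGFP negative cells and 65.5 ± 4.93 CPM in EGFP positive cells (SD, n = 2 each). NEAT1 rose 1.55-fold, a log2 fold change of 0.63 ± 0.10 (SE; 95% interval 0.42 to 0.84; edgeR adjusted p = 0.00044). The call held under all 12 alternatives run, with log2 fold changes of 0.56 to 0.71. NEAT1 shares 120, 105, 159 and 100 exon bases with 4 small annotated genes, including MIR612, all with 0 counts.

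MALAT1 (chr11:65497688-65506516, plus strand, 7779 bases of exon) is usually among the most abundant polyadenylated-library transcripts, yet was near the bottom here. It had 87 and 55 counts in EGFP negative libraries against 68 and 86 in EGFP positive libraries. At 6.99 and 4.71 CPM in EGFP negative cells and 5.88 and 7.47 CPM in EGFP positive cells, the groups overlapped. The log2 fold change was -0.19 ± 0.25 (95% interval -0.71 to 0.34; edgeR adjusted p = 0.68), an interval that includes no difference and also changes in either direction; without EGFP negative library 2 the sign was positive, at 0.08.

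The counting annotation places TALAM1, an antisense gene, over most of MALAT1. TALAM1 exons cover 7205 of the 7779 exon bases, 92.6%, and leave 574 bases, all within the first 1624 bases of the locus. The counting command in the file headers sets no strand and does not allow a fragment to be given to 2 genes. A fragment that lies wholly in exon bases shared by both is thus given to neither. TALAM1 itself had 0 counts in the 4 libraries although its exons run 8121 bases. Over the 574 unshared bases, MALAT1 came to 12.2 and 8.21 RPKM in EGFP negative cells and 10.3 and 13.0 RPKM in EGFP positive cells, against 0.899 and 0.606 RPKM in EGFP negative cells and 0.756 and 0.960 RPKM in EGFP positive cells over the full length. The counts reported for MALAT1 therefore come from fragments that reach its first part and are not a measure of the whole RNA. How fragments only partly in shared bases were counted is not shown, so the levels over the 574 bases are uncertain. Over all genes tested, the median share of exon bases in another gene was 0%, and 39 genes, 0.238%, had at least 90% shared. The counting rule also applies to the other members, so 0 counts of a gene within their exons do not show an absence of fragments.

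**Figure D2:**
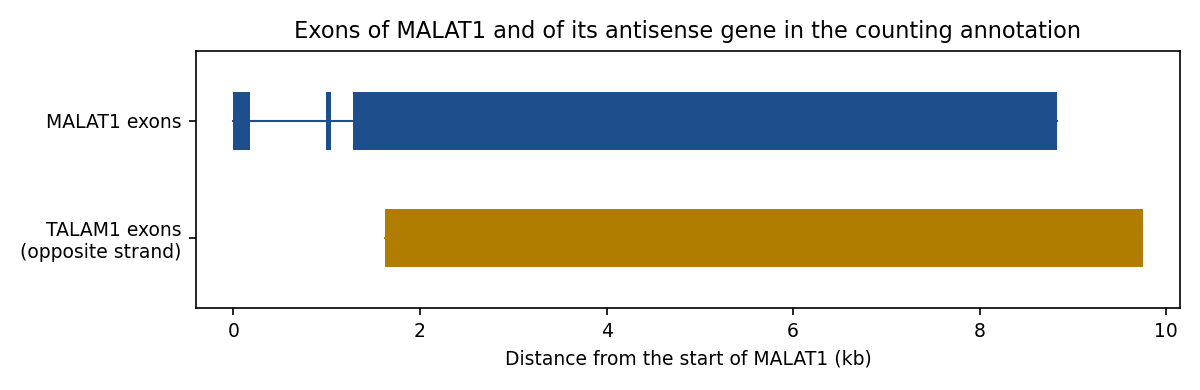
Exons of MALAT1 (upper row) and of the antisense gene TALAM1 (lower row) in the counting annotation, against the distance from the start of MALAT1 in kilobases; boxes are exons and the thin line is intron. TALAM1 begins after the first 1624 bases and covers 7205 of the 7779 MALAT1 exon bases.

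Genes for proteins of the bodies in which these RNAs sit were measured too, and the share called is set beside the 18.9% called over all genes. Of 20 paraspeckle protein genes tested, 1 was higher and 1 lower (10.0%), with a median log2 fold change of 0.02. NUDT21, a cleavage factor that helps choose polyadenylation sites, averaged 59.7 CPM in EGFP negative cells and 47.8 CPM in EGFP positive cells (adjusted p = 0.038). SMARCA4, an ATPase of SWI/SNF chromatin remodelling, averaged 398 CPM in EGFP negative cells and 479 CPM in EGFP positive cells (adjusted p = 0.036). The paraspeckle core proteins were not called: NONO averaged 422 CPM in EGFP negative cells and 489 CPM in EGFP positive cells, and SFPQ 424 CPM in EGFP negative cells and 392 CPM in EGFP positive cells (adjusted p = 0.080 and 0.33). Of 27 nuclear speckle protein genes, 2 were higher and 2 lower (14.8%), with a median of -0.03. The splicing factors SRSF6 and SRSF5 were higher, at 214 and 206 CPM in EGFP negative cells against 175 and 171 CPM in EGFP positive cells (adjusted p = 0.023 and 0.034). SRSF4, another SR splicing factor, and SRPK1, a kinase of SR proteins, were lower, at 153 and 275 CPM in EGFP negative cells against 200.1 and 355 CPM in EGFP positive cells (adjusted p = 0.0041 and 0.0045). Across the 12 alternatives, each of these 4 counts ranged from 0 to at most 5.

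SNHG1 (chr11:62851988-62855906, minus strand, 3704 bases of exon) was lower in EGFP negative cells. It had 1117 and 1113 counts in EGFP negative libraries against 1384 and 1540 in EGFP positive libraries. At 89.7 and 95.4 CPM in EGFP negative cells and 120 and 134 CPM in EGFP positive cells, the groups were apart. The means were 92.6 ± 3.99 CPM in EGFP negative cells and 127 ± 9.86 CPM in EGFP positive cells (SD, n = 2 each), and the log2 fold change was -0.45 ± 0.09 (95% interval -0.65 to -0.26; edgeR adjusted p = 0.0033). Without EGFP positive library 2 the log2 fold change was -0.37 and the call was lost (adjusted p = 0.14). The exons listed for SNHG1 fill 94.5% of its span, so reads from introns of its spliced forms are counted too. They share 537 bases with SNORD22, SNORD25, SNORD27, SNORD28 and SNORD30, snoRNAs that the locus encodes, each with 0 counts.

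GAS5 (chr1:173858559-173868882, minus strand, 3947 bases of exon), an RNA that accumulates when growth stops and can bind the glucocorticoid receptor, moved less. It had 1011 and 929 counts in EGFP negative libraries against 1122 and 1088 in EGFP positive libraries. The levels were 81.2 and 79.6 CPM in EGFP negative cells and 97.1 and 94.4 CPM in EGFP positive cells, with no overlap. The log2 fold change of -0.25 ± 0.09 (95% interval -0.44 to -0.06) did not pass over all genes (edgeR adjusted p = 0.064), although the unadjusted interval leaves out 0. It was -0.27 and -0.23 without EGFP negative library 1 or 2, and -0.23 and -0.27 without EGFP positive library 1 or 2. With a replicate block it passed (edgeR adjusted p = 0.013). It did not pass with DESeq2 (adjusted p = 0.17) or with no filter on low counts (edgeR adjusted p = 0.13). The antisense gene GAS5-AS1 shares 132 bases of its exons and had 5 and 3 counts in EGFP negative libraries and 6 and 1 in EGFP positive libraries; reads of the 2 strands cannot be told apart here.

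Of 24 other snoRNA host genes tested among the 26 listed, 0 were higher and 7 were lower, 29.2% in all, beside 18.9% of all genes called and 9.46% lower, and the median log2 fold change was -0.22. The count of 7 changed with the processing. It was 1 without EGFP positive library 1 (4.36% of all genes lower there), 3 without EGFP positive library 2 (4.46%), 3 with DESeq2 (6.45%) and 4 with no filter on low counts (3.81%), and 1 gene was higher without EGFP negative library 2. DANCR averaged 34.1 CPM in EGFP negative cells and 54.4 CPM in EGFP positive cells, a log2 fold change of -0.67 ± 0.10 (edgeR adjusted p = 0.00042). SNHG15 averaged 24.6 CPM in EGFP negative cells and 36.0 CPM in EGFP positive cells (adjusted p = 0.0078). SNHG17 averaged 28.8 and SNHG7 44.1 CPM in EGFP negative cells, against 39.0 and 59.6 CPM in EGFP positive cells (adjusted p = 0.014 and 0.017).

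The proteins that bind snoRNAs were measured beside their hosts. Of 11 snoRNP protein genes tested, 0 were higher and 3 were lower (27.3%, beside 18.9% of all genes called and 9.46% lower), with a median log2 fold change of -0.15; the count of 3 ranged from 1 to 5 across the alternatives. DKC1, the pseudouridine synthase of H/ACA particles and of telomerase RNA, averaged 163 CPM in EGFP negative cells and 246 CPM in EGFP positive cells (adjusted p = 0.00015). NOP56, a core protein of C/D particles, averaged 261 CPM in EGFP negative cells and 350.1 CPM in EGFP positive cells (adjusted p = 0.0016). NOLC1, a chaperone of snoRNPs, averaged 369 CPM in EGFP negative cells and 453 CPM in EGFP positive cells (adjusted p = 0.018). Of 17 nonsense-mediated decay factors, 1 was higher and 2 were lower (17.7%, beside 18.9% of all genes), with a median of -0.02; across the alternatives 0 to 2 were higher and 0 to 5 lower. The lower ones were UPF1, the helicase of the pathway, at 203 CPM in EGFP negative cells against 257 CPM in EGFP positive cells (adjusted p = 0.011), and UPF3B, which links UPF proteins to the exon junction complex, at 42.3 CPM in EGFP negative cells against 55.0 CPM in EGFP positive cells (adjusted p = 0.019). The higher one, MAGOHB, an exon junction protein with a near-identical copy, averaged 14.3 CPM in EGFP negative cells and 10.0 CPM in EGFP positive cells (adjusted p = 0.046) and is uncertain.

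Ribosomal protein genes are known for the same kind of start. Of 75 tested, 4 were higher and 5 lower (12.0%, beside 18.9% of all genes), with a median log2 fold change of 0.05. RPL41 averaged 153 CPM in EGFP negative cells and 107 CPM in EGFP positive cells (adjusted p = 0.0056), and RPL9 averaged 35.1 CPM in EGFP negative cells and 60.3 CPM in EGFP positive cells (adjusted p = 0.00013). These genes have many processed copies, so single members are uncertain. The counts depended on single libraries, with 37 higher without EGFP negative library 2 and 18 lower without EGFP negative library 1.

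The genes fixed for the GAS5 partner, the glucocorticoid receptor gene and its targets, moved in both directions. Of 7 tested of 8, the receptor gene included, 1 was higher and 2 lower (42.9%, beside 18.9% of all genes), with a median of -0.15. The higher count ranged from 1 to 2 and the lower from 1 to 3 across the alternatives. KLF9, a transcription factor, averaged 9.66 CPM in EGFP negative cells and 3.60 CPM in EGFP positive cells (adjusted p = 0.00053). DUSP1, a MAP kinase phosphatase, averaged 28.5 CPM in EGFP negative cells and 67.9 CPM in EGFP positive cells (adjusted p = 1.2e-05), and the kinase gene SGK1 averaged 18.6 CPM in EGFP negative cells and 26.7 CPM in EGFP positive cells (adjusted p = 0.012). The receptor gene NR3C1 averaged 137 CPM in EGFP negative cells and 156 CPM in EGFP positive cells and was not called (edgeR adjusted p = 0.15). The targets TSC22D3, FKBP5 and PER1 were not called either (edgeR adjusted p = 0.063, 0.26 and 0.96).

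**Figure D3:**
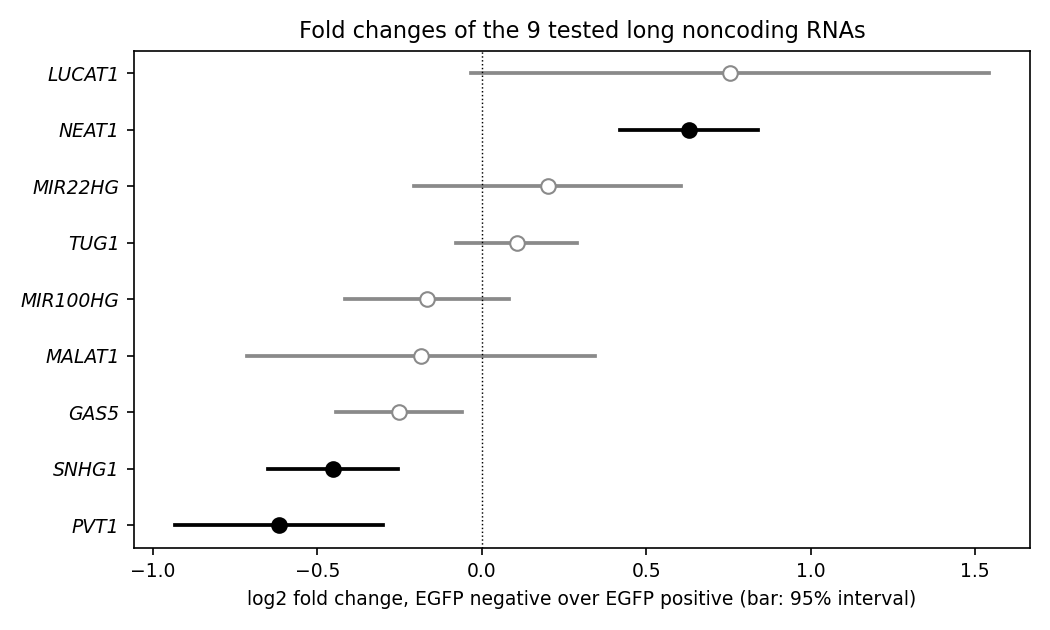
log2 fold change, EGFP negative over EGFP positive, of the 9 long noncoding RNAs tested; bars are 95% intervals of the edgeR fit with 2 libraries a group, and filled points have an adjusted p under 0.05. NEAT1 lies to the right of 0 at 0.63 and SNHG1 and PVT1 to the left at -0.45 and -0.62, while the interval of LUCAT1 is the widest.

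MIR31HG (chr9:21399572-21559877, minus strand, 11578 bases of exon) had 0 counts in both EGFP negative and both EGFP positive libraries, below the limit of 0.241 to 0.260 CPM that 3 counts would give in a library. That limit covers counting error only. Most of its surroundings were also without counts: of 56 other genes whose midpoint lies within 1000 kb of its start, 51 had none in any library. The other 5 had counts, given here summed over the 2 libraries of a group. FOCAD had 58 in EGFP negative and 51 in EGFP positive cells, and KHSRPP1, a processed copy, had 443 in EGFP negative and 554 in EGFP positive cells. CDKN2B-AS1 had 38 in EGFP negative and 42 in EGFP positive cells, while MIR491 and FOCAD-AS1 had at most 2 in either group. MTAP, an enzyme of methionine salvage, and the cell cycle inhibitor genes CDKN2A and CDKN2B lie 243, 408 and 443 kb away, and each had 0 counts in all 4 libraries; these 3 were picked after their values were seen. Genome copy number was not measured.

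**Figure D4:**
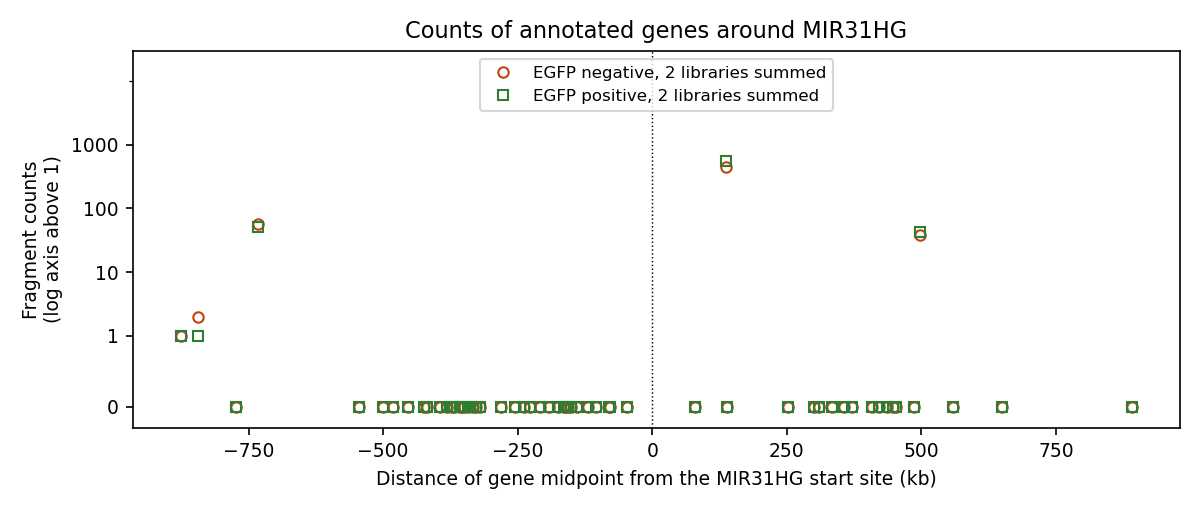
Fragment counts of MIR31HG and of each annotated gene whose midpoint lies within 1000 kb of its start, summed over the 2 EGFP negative (circles) and the 2 EGFP positive libraries (squares), on an axis that is logarithmic above 1; the horizontal axis is the distance of the gene's midpoint from the MIR31HG start in kilobases. Apart from 5 genes, all points lie at 0.

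Of 6 genes known as miR-31 targets, 2 were higher and 0 were lower (33.3%, beside 18.9% of all genes called and 9.4% higher), with a median log2 fold change of 0.13; across the alternatives 1 to 3 were higher and 0 to 1 lower. MMP16, a membrane-bound metalloproteinase, averaged 12.8 CPM in EGFP negative cells and 4.12 CPM in EGFP positive cells (adjusted p = 6.7e-05). ITGA5, the alpha chain of the fibronectin receptor, averaged 170.2 CPM in EGFP negative cells and 132 CPM in EGFP positive cells (adjusted p = 0.0067). The other 4 were not called, and their log2 fold changes had both signs: 0.14 for RHOA, 0.12 for MPRIP, -0.27 for RDX and -0.61 for FZD3 (edgeR adjusted p = 0.22, 0.35, 0.063 and 0.20).

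MIR100HG (chr11:122028361-122556721, minus strand, 17291 bases of exon), the host of miR-125b, let-7a and miR-100, had 477 and 549 counts in EGFP negative libraries against 545 and 559 in EGFP positive libraries. The levels were 38.3 and 47.1 CPM in EGFP negative cells and 47.2 and 48.5 CPM in EGFP positive cells. Both EGFP negative libraries were below both EGFP positive ones, the closest pair almost level. The log2 fold change was -0.17 ± 0.12 (95% interval -0.42 to 0.08; edgeR adjusted p = 0.37). It was -0.03 without EGFP negative library 1 and -0.31 without EGFP negative library 2. Without EGFP positive library 1 or 2 it was -0.19 or -0.14. Its exons share 83 bases with BLID, which had 0 and 8 counts in EGFP negative libraries and 6 and 0 in EGFP positive libraries.

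MIR22HG (chr17:1711503-1717174, minus strand, 2952 bases of exon), which gives rise to miR-22, had 120 and 113 counts in EGFP negative libraries against 87 and 107 in EGFP positive libraries. The levels were 9.64 and 9.68 CPM in EGFP negative cells and 7.53 and 9.29 CPM in EGFP positive cells, just apart. The log2 fold change was 0.20 ± 0.19 (95% interval -0.21 to 0.61; edgeR adjusted p = 0.53), which spans changes in either direction. MIR22 overlaps 85 of its exon bases and had 0 counts.

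Some other microRNA hosts moved by more, in both directions, while 9 of those tested were not called. Of 15 tested of 24 listed, 3 were higher and 3 lower (40%, beside 18.9% of all genes), with a median log2 fold change of 0.03. MIR34AHG, host of the p53-induced miR-34a, had 81 and 62 counts in EGFP negative libraries against 6 and 0 in EGFP positive libraries, a log2 fold change of 4.45 ± 0.55 (edgeR adjusted p = 6.2e-05). MIR210HG, host of the hypoxia-induced miR-210, had 35 and 28 counts in EGFP negative libraries against 11 and 5 in EGFP positive libraries (adjusted p = 0.0086). MIR137HG was lower, at 24.1 CPM in EGFP negative cells against 63.2 CPM in EGFP positive cells, a log2 fold change of -1.39 ± 0.11 (edgeR adjusted p = 1.2e-06). Both MIR34AHG and MIR210HG passed the count filter through the EGFP negative libraries alone, so they could only be called higher. The 3 higher hosts and the 40% include them. MIR503HG averaged 6.60 CPM in EGFP negative cells and 14.9 CPM in EGFP positive cells (adjusted p = 0.00038). The count of higher hosts was 1 with DESeq2 and also 1 without EGFP positive library 2.

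The machinery that makes and uses microRNAs was measured alongside. Of 15 genes tested, 1 was higher and 4 were lower (33.3%, beside 18.9% of all genes called and 9.46% lower), with a median of -0.01; across the alternatives 0 to 2 were higher and 2 to 5 lower, with 0 higher without either EGFP positive library, with DESeq2 and with no filter. AGO2, the slicing Argonaute, averaged 150 CPM in EGFP negative cells and 223 CPM in EGFP positive cells (adjusted p = 0.00026). XPO5, which exports precursors from the nucleus, averaged 163 CPM in EGFP negative cells and 225 CPM in EGFP positive cells (adjusted p = 0.00091). DICER1, which cuts them to mature form, averaged 75.9 CPM in EGFP negative cells and 105 CPM in EGFP positive cells (adjusted p = 0.0020). TNRC6B, a partner of Argonaute in silencing, was the higher one, at 54.2 CPM in EGFP negative cells against 42.7 CPM in EGFP positive cells (adjusted p = 0.031).

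PVT1 (chr8:127794537-128187101, plus strand, 17534 bases of exon) showed the lowest fold change of the 9. It had 164 and 170 counts in EGFP negative libraries against 230 and 261 in EGFP positive libraries. At 13.2 and 14.6 CPM in EGFP negative cells and 19.9 and 22.7 CPM in EGFP positive cells, the groups were apart. The means were 13.9 ± 0.99 CPM in EGFP negative cells and 21.3 ± 1.95 CPM in EGFP positive cells (SD, n = 2 each), and the log2 fold change was -0.62 ± 0.15 (95% interval -0.93 to -0.30; edgeR adjusted p = 0.0092). Without EGFP positive library 2 it was -0.52 and the call was lost (adjusted p = 0.16). PVT1 exons share 3.82% of their bases with 6 other annotated genes; 5 had 0 counts and ENSG00000278275 had 1 and 0 in EGFP negative libraries and 0 and 4 in EGFP positive libraries.

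TUG1 (chr22:30969265-30979395, plus strand, 7474 bases of exon) had 1554 and 1567 counts in EGFP negative libraries against 1370 and 1408 in EGFP positive libraries. Levels of 125 and 134 CPM in EGFP negative cells and 119 and 122 CPM in EGFP positive cells did not overlap but lay close. The log2 fold change was 0.11 ± 0.09 (95% interval -0.08 to 0.29; edgeR adjusted p = 0.45). TUG1 exons share 19.4% of their bases with 6 small annotated genes, 2 of them on the opposite strand.

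LUCAT1 (chr5:91151238-91314408, minus strand, 11015 bases of exon) was the least abundant member with counts. It had 27 and 33 counts in EGFP negative libraries against 18 and 16 in EGFP positive libraries. At 2.17 and 2.83 CPM in EGFP negative cells and 1.56 and 1.39 CPM in EGFP positive cells, the groups did not overlap. The log2 fold change of 0.76 ± 0.37 was the largest positive one, but its 95% interval ran from -0.03 to 1.54 and it was not called (edgeR adjusted p = 0.18). Summed counts were 60 in EGFP negative and 34 in EGFP positive cells. Adjusted for depth, the ratio was 1.68, and counting error alone gives it a 95% interval of 1.08 to 2.64.

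A stretch of the LUCAT1 promoter is shown because NRF2 acts through the antioxidant response element. It spans chr5:91314388-91314496 on the minus strand (RefSeq, GRCh38.p14), and capitals mark overlapping matches to the element core and to the AP-1 motif, which together begin 54 bases before the RefSeq start at base 91314402.
LUCAT1 promoter: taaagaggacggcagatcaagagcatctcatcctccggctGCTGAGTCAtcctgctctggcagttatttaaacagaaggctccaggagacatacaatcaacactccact
The motifs searched on both strands were TGACNNNGC for the element core and TGANTCA for AP-1, in windows of 250 bases before to 50 after a start. Of 35116 promoters, 13.4% held the first and 7.71% the second. Of the 8 members with promoter entries, LUCAT1 and MALAT1 held the first and LUCAT1 also the second. A match to letters does not show that a factor binds.

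Of 18 NRF2 target genes tested of 19, 6 were higher and 1 was lower (38.9%, beside 18.9% of all genes, 9.4% higher and 9.46% lower), with a median log2 fold change of 0.20; the higher count ranged from 5 to 7 across the alternatives, and the lower one was 0 without either EGFP positive library. NQO1, a quinone reductase, averaged 331 CPM in EGFP negative cells and 131 CPM in EGFP positive cells, a log2 fold change of 1.34 ± 0.08 (edgeR adjusted p = 8.6e-08). PGD, an enzyme of the pentose phosphate pathway, averaged 209 CPM in EGFP negative cells and 136 CPM in EGFP positive cells (adjusted p = 0.00011). The aldo-keto reductases AKR1C1 and AKR1C2 averaged 4.10 and 3.26 CPM in EGFP negative cells and 0.694 and 0.390 CPM in EGFP positive cells (edgeR adjusted p = 0.00037 and 0.00079). They are near-identical copies and uncertain. Both passed the count filter through the EGFP negative libraries alone, so they could only be called higher. The 6 higher and the 38.9% include them, and the list was chosen with earlier results of these data known, so the share is a description only. TXNRD1, a thioredoxin reductase, was the lower one, at 421 CPM in EGFP negative cells against 518 CPM in EGFP positive cells (adjusted p = 0.011). HMOX1, the inducible heme oxygenase, averaged 13.4 CPM in EGFP negative cells and 14.4 CPM in EGFP positive cells and was not called.

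Of 18 other cancer-linked long noncoding RNAs tested, 1 was higher and 3 were lower (22.2%, beside 18.9% of all genes), with a median of 0.01; the lower count ranged from 2 to 5 across the alternatives. LINC00511 averaged 24.8 CPM in EGFP negative cells and 14.0 CPM in EGFP positive cells (adjusted p = 0.00093). UCA1, first described in bladder carcinoma, had 2 and 9 counts in EGFP negative libraries against 34 and 28 in EGFP positive libraries, a log2 fold change of -2.53 (edgeR adjusted p = 0.0039); it passed the count filter through the EGFP positive libraries alone. CYTOR averaged 77.8 CPM in EGFP negative cells and 112 CPM in EGFP positive cells (adjusted p = 0.00091); it has a near-identical copy in MIR4435-2HG and is uncertain. AFAP1-AS1 averaged 53.4 CPM in EGFP negative cells and 69.6 CPM in EGFP positive cells (adjusted p = 0.012).

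**Figure D5:**
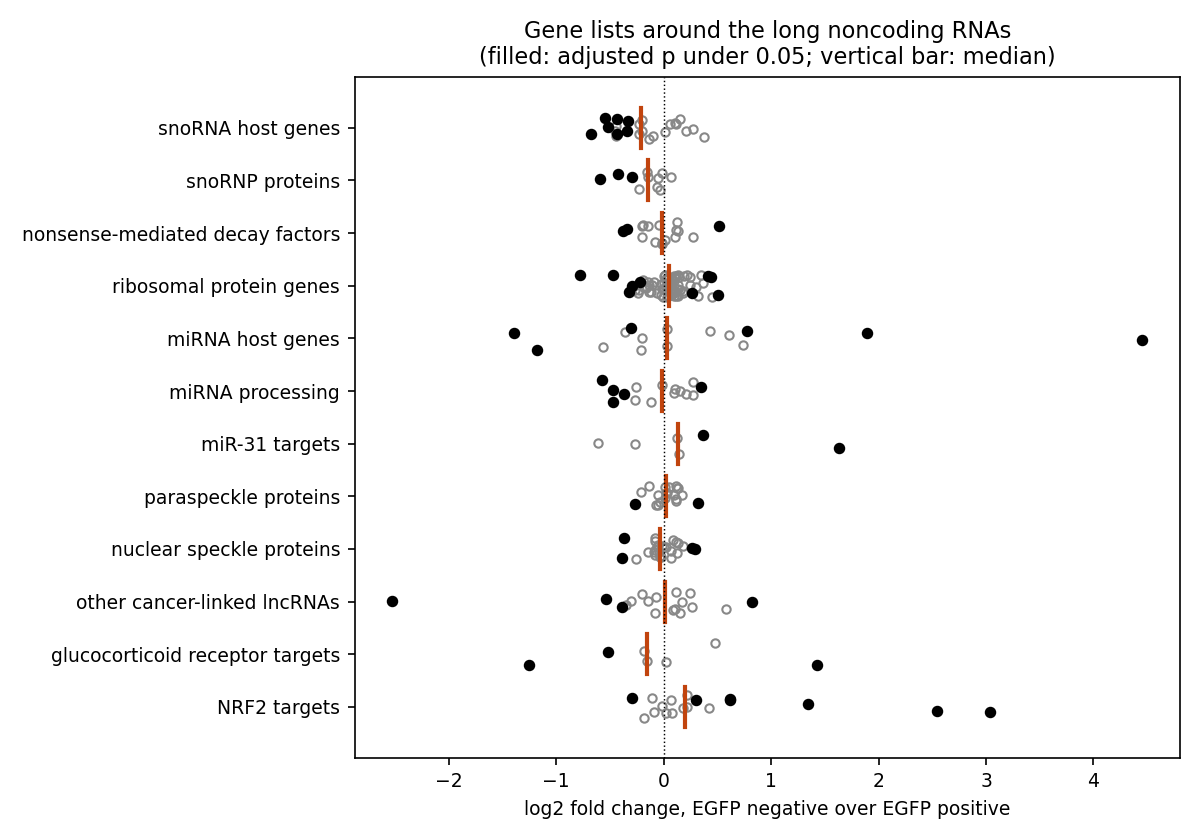
log2 fold change, EGFP negative over EGFP positive, of each tested gene in the 12 lists around the long noncoding RNAs; a point is a gene, filled where its adjusted p is under 0.05, and the vertical bar is the list's median. The snoRNA host genes have 7 filled points, all below 0, and the NRF2 targets 6 above 0 and 1 below. Of the NRF2 targets above 0, AKR1C1 and AKR1C2 passed the count filter through the EGFP negative libraries alone.

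The genes around each member were set beside it. Within 250 kb of PVT1, 2 genes were tested. MYC, the transcription factor gene 51.6 kb away, averaged 141 ± 4.04 CPM in EGFP negative cells and 175 ± 3.82 CPM in EGFP positive cells (SD, n = 2 each), a log2 fold change of -0.30 ± 0.08 (edgeR adjusted p = 0.019). ENSG00000286034, 136 kb to the other side, had 1 and 0 counts in EGFP negative libraries against 13 and 13 in EGFP positive libraries. It passed the count filter through the EGFP positive libraries alone, so its call as lower (adjusted p = 0.0030) is no support.

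Within 250 kb of SNHG1, 23 genes were tested, of which 0 were higher and 2 lower, beside 9.4% and 9.46% of all genes. SLC3A2, the heavy chain of an amino acid transporter that starts 98 bases from SNHG1, averaged 299 CPM in EGFP negative cells and 352 CPM in EGFP positive cells and was not called (adjusted p = 0.084). WDR74, a ribosome assembly factor 10.2 kb away, averaged 50.3 CPM in EGFP negative cells and 67.6 CPM in EGFP positive cells (adjusted p = 0.015). NEAT1 and MALAT1 are neighbours. Within 250 kb of MALAT1, 3 of 22 genes tested were higher and 0 lower, beside 9.4% and 9.46% of all genes. The 3 were NEAT1 itself, LTBP3 and EHBP1L1. LTBP3, a latent TGF-beta binding protein, averaged 26.8 CPM in EGFP negative cells and 16.6 CPM in EGFP positive cells (edgeR adjusted p = 0.0057). EHBP1L1 averaged 206 CPM in EGFP negative cells and 149 CPM in EGFP positive cells (edgeR adjusted p = 0.0018).

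No gene called lay within 250 kb of GAS5 (5 tested), TUG1 (8), MIR31HG (1), MIR100HG (3), MIR22HG (15) or LUCAT1 (3). Over all genes tested, 18.9% were called. The nearest tested gene to one side of MIR100HG was SORL1, a sorting receptor 395 kb away, at 41.4 CPM in EGFP negative cells against 6.37 CPM in EGFP positive cells, a log2 fold change of 2.70 ± 0.15 (edgeR adjusted p = 2.9e-08).

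Likeness across the 4 libraries was measured as the distance between log2(CPM + 0.1) profiles, each centred on its mean, within a pool of 57 tested long noncoding RNAs of the 3 lists. The profiles nearest NEAT1 were DLEU2 at 0.181 and MIR1915HG at 0.211, neither called. Nearest PVT1 were CYTOR at 0.119 and DANCR at 0.173, and nearest SNHG1 were CYTOR at 0.104 and SNHG17 at 0.147. All profiles share the same 4 libraries, so the distances are a description only.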

How the data were processed

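The deposited tables hold raw fragment counts per gene, made by the authors with featureCounts 2.0.1 on exons by gene name (GENCODE 46 basic), with paired ends and no strand option, per the file headers. Polyadenylated RNA was selected and a directional kit used, per the labels' protocols. The submitters' processing notes name GRCh37 and hg19, but 18586 of 18693 protein-coding genes (99.4%) start or end within 5000 bases of their GRCh38 place in GENCODE 29, so the coordinates printed are GRCh38. The aligner is not given in the sources used here.

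Libraries were grouped by title. Counts were tested with edgeR 4.0.16 in R 4.3.3 (quasi-likelihood test, TMM scaling, filterByExpr with a minimum count of 10 and total of 15, Benjamini-Hochberg adjustment over 16413 genes, threshold 0.05); the biological coefficient of variation was 7.52%. Errors are the log2 fold change over the square root of F. The pipeline was tested on simulated data. Alternatives used DESeq2 1.42.0, limma 3.58.1 (voom), other scalings and filters, a replicate block and each library left out. An exact permutation test of 2 libraries against 2 cannot go below 0.33 (two-sided) and was not used. Depth, 11445076 to 12635576 fragments, limits the precision of members with few counts.

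The members and the gene lists were chosen with earlier results of these data known. The genes named are all members, up to 4 genes called per list with the smallest adjusted p (with a few others named for their known role), genes that share exons with a member, the nearest tested genes and the 2 nearest profiles of each member called; other genes named were chosen after their values were seen. Promoter and microRNA sequences come from RefSeq (GRCh38.p14) and transcript ends from GENCODE 29. One marker of another cell type is not reported here.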

Additional observations from a re-analysis of the deposited data

How the results depend on the processing

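The log2 fold changes of NEAT1, PVT1, SNHG1, GAS5, TUG1, MIR100HG, MIR22HG and LUCAT1 kept their direction under every alternative run (12 each, 11 for LUCAT1, which the stricter filter removed), and NEAT1 kept its call in all 12. MALAT1 ranged from -0.504 to 0.076 as each library was left out, and turned positive without EGFP negative library 2 (adjusted p = 0.86). With 1 library in an arm, that library is assumed to vary like the others. Members called lower ranged from 0 to 4 as each library was left out, against 2 with all 4 (the low end came without EGFP positive library 2, the high end without EGFP negative library 2). Over all genes, leaving out each library gave 720 to 2477 genes higher and 715 to 2465 lower, against 1543 and 1552. The lower count was 997 with DESeq2. The chi-square per degree of freedom between libraries of a group was 6.65 in EGFP negative and 2.12 in EGFP positive cells. Of 288 list counts recomputed, 68 moved by over 1.5 times; the cause was not tested.

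Replicate numbers are shared by both groups, but same-numbered libraries deviated together only weakly (correlation 0.114 across genes) and 2 pairs cannot show a pairing. The replicate block gave 2407 genes lower and 2297 higher, and GAS5 passed under it (adjusted p = 0.013). Few counts limit LUCAT1, MALAT1 and MIR22HG, whose counting intervals were wide. MALAT1 also had only 574 exon bases outside TALAM1, so its few counts do not reflect depth alone.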
